A study of Homo sapiens with 24 samples.

Results

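The cytosolic ribosomal protein genes encode the proteins of the small (40S) and large (60S) subunits of the ribosome. Members were taken by symbol, namely RPL or RPS followed by digits and at most 1 of the letters A, X or L, plus RPLP0, RPLP1, RPLP2 and RPSA, with pseudogenes left out. The rule found 80 genes among the 38735 named genes of the table, 48 of the 60S subunit and 32 of the 40S subunit. In total 78 of them reached the mean of 10 normalized counts needed to be tested, and RPL3L and RPL10L did not. The RNA came from THP-1, a widely used cell line grown from a human monocytic leukaemia, and cells of all 4 groups had first been made macrophage-like with 100 nM of the phorbol ester PMA for 24 h. DCVC_LPS cells then received 5 µM S-(1,2-dichlorovinyl)-L-cysteine (DCVC, a cysteine conjugate made from the solvent trichloroethylene) for 24 h and, in fresh medium, 100 ng/mL lipopolysaccharide (LPS, from the outer membrane of gram-negative bacteria) for 4 h. LPS cells received that LPS dose for 4 h without DCVC, DCVC cells received that DCVC dose for 24 h without LPS, and Control cells received medium only. Each group had 6 libraries with the letters A to F, all from 1 cell line, and nothing in the labels says that they are separate cultures. The p-values therefore reflect the spread from library to library, which may be technical. The series title names the question as how DCVC affects the inflammatory response of a macrophage model to LPS.

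Ribosomal proteins are made in near equal numbers, because each ribosome holds a single copy of most of them, and their mRNAs are among the most abundant in any cell. The mRNAs typically begin with a cytosine followed by a run of pyrimidines, the 5′ terminal oligopyrimidine (TOP) motif, through which mTOR signalling and the binding protein LARP1 set how much of each is translated and kept. In macrophages, LPS sensed by TLR4 starts a large transcriptional programme that draws on this translation machinery. A few members have paralogues with tissue-restricted or inducible expression, among them RPS27L, a paralogue of RPS27 that p53 can induce, and RPL39L, a paralogue of RPL39 known from testis.

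The start of the gene carries the motif that the family shares, so the bases around the start are shown for a stalk protein, for RPL13A, and for both paralogue pairs as far as the promoter table holds them. Each window holds 40 bases before and 20 bases from the RefSeq start on GRCh38.p14, read 5′ to 3′ on the gene's strand, and capitals mark each run of a C followed by at least 4 C or T that begins within 10 bases of the start.
RPLP0: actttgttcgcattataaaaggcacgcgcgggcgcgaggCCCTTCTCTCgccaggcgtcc
RPL13A: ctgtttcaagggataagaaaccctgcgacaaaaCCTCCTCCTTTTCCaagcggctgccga
RPS27: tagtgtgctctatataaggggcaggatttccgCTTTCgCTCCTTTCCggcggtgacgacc
RPL39: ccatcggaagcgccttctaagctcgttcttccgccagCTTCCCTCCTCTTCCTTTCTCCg
RPS27L: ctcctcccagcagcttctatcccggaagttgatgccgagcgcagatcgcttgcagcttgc
The windows lie at chr12:120201092-120201151 (minus strand, RPLP0), chr19:49487568-49487627 (plus strand, RPL13A), chr1:153990722-153990781 (plus strand, RPS27), chrX:119791611-119791670 (minus strand, RPL39) and chr15:63157458-63157517 (minus strand, RPS27L). In RPS27L these letters are not in the searched window.

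Chromosome 8, with RPL7, RPL8, RPL30 and RPS20, was left out of the promoter search, for members and for all genes. The C-then-pyrimidine run, searched on the gene's strand, was present near the start in 56 of the 63 members found in the rest of the promoter table (88.9%), against 10494 of all 27305 genes in it (38.4%). On either strand of the 300 bases of promoter, CCGGAAG, a core bound by ETS factors, was present in 23 members (36.5%), against 12.2% of all genes, and AAGATGGC, bound by YY1, in 6 members (9.5%), against 3.5%. TGACNNNGC, the core of the antioxidant response element, was present in 9 members (14.3%), against 16.1% of all genes. The members with and without the run changed by a like median amount: in DCVC against Control the median log2 change of the normalized counts as deposited was -0.46 over 56 members with the run and -0.48 over 6 tested members without it. In LPS against Control it was 0.25 with the run and 0.19 without it. These matches describe letters and do not show sites in use.

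The reads recovered per library in named genes numbered 20352552 to 26232127 in DCVC_LPS, 19985317 to 25368299 in 5 LPS libraries, 18478618 to 22015664 in DCVC and 19675823 to 27986524 in Control, of which 778887 to 1652903 fell in the 80 members. The deposited values are read counts divided by 1 factor per library, and their totals differed between groups, at 21831254 in DCVC_LPS, 29427331 in LPS, 17774466 in DCVC and 21135356 in Control (means, n = 6). Scaling every library to the same total shifts all genes of a library together, so counts of members are given on the deposited scale and with equal totals. All 10 macrophage and monocyte markers were tested, and their sum moved with the groups: it was 67789 to 74823 normalized counts in DCVC_LPS, 65566 to 76296 in LPS, 76892 to 86432 in DCVC and 91061 to 105263 in Control, so that every Control library lay above all others. The markers did not move alike. In LPS against Control 2 were raised and 5 lowered on the deposited scale, beside 37.8% and 40.6% of all genes. In DCVC against Control 3 were raised and 5 lowered, beside 27.5% and 32.2%. CSF1R had means of 10876 in DCVC_LPS, 9693 in LPS, 24209 in DCVC and 32211 in Control. Those of LYZ were 3716, 1628, 3223 and 1455 in the same order. CD14, the LPS co-receptor of monocytes, had 16.3 to 45.9 in DCVC_LPS, 109 to 268 in LPS, 171 to 487 in DCVC and 1639 to 4443 in Control, and CD68, a lysosomal macrophage marker, was low throughout, at 1.48 to 33.3. The part of these markers in the results was not tested. In the same libraries 6 markers of other lineages summed to 21.1 to 64.1 and HBB was at 0 throughout. In bulk RNA, fewer cells and less RNA per cell cannot be told apart.

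Levels within the family spanned a wide range. Per kilobase of mRNA the mean level over all libraries had a median of 14847 normalized counts over the 80 members, with quartiles of 6178 and 25202. The length was that of 1 annotated transcript per gene, from 169 bases for RPL38 to 7686 for RPL37, with 6434 for RPS27L. Which transcripts these cells make was not tested, so levels per kilobase and their order are uncertain. RPS18, a protein of the head of the 40S subunit, had the highest level per kilobase at 53951. Low levels per kilobase were found for RPS10 (74.3), RPL39L (84.7), RPS27L (106), RPL36A (175), RPL17 (656) and RPL26 (925), all in normalized counts per kilobase. All of these except RPL39L and RPS27L share more than 50% of their mRNA bases with exons of other annotated genes, as does RPL10, which makes their values uncertain. The 1274 pseudogene entries of the family held 1.16 normalized counts per 100 of the members in DCVC_LPS, 1.09 in LPS, 1.19 in DCVC and 1.12 in Control.

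As a share of all values in named genes, which does not depend on the factor of a library, the family had a lower mean in each treated group than in Control. The lowest, median and highest library had 4.21%, 5.04% and 5.29% in DCVC_LPS, 4.05%, 4.75% and 5.30% in LPS, 4.22%, 4.73% and 5.45% in DCVC, and 4.73%, 5.86% and 6.69% in Control. The ranges overlapped, and the means were 4.88 ± 0.46% in DCVC_LPS, 4.69 ± 0.53% in LPS, 4.81 ± 0.43% in DCVC and 5.69 ± 0.75% in Control (SD, n = 6). Within a letter the order was steadier. The LPS library had a lower share than the Control library of its letter in 6 of 6 letters, and so had the DCVC library. The DCVC_LPS share was higher than the LPS share in 5 of 6 letters, and higher than the DCVC share in 3 of 6. Letters A and B, C and D, and E and F resembled each other, so these are not 6 independent comparisons.

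**Figure D1:**
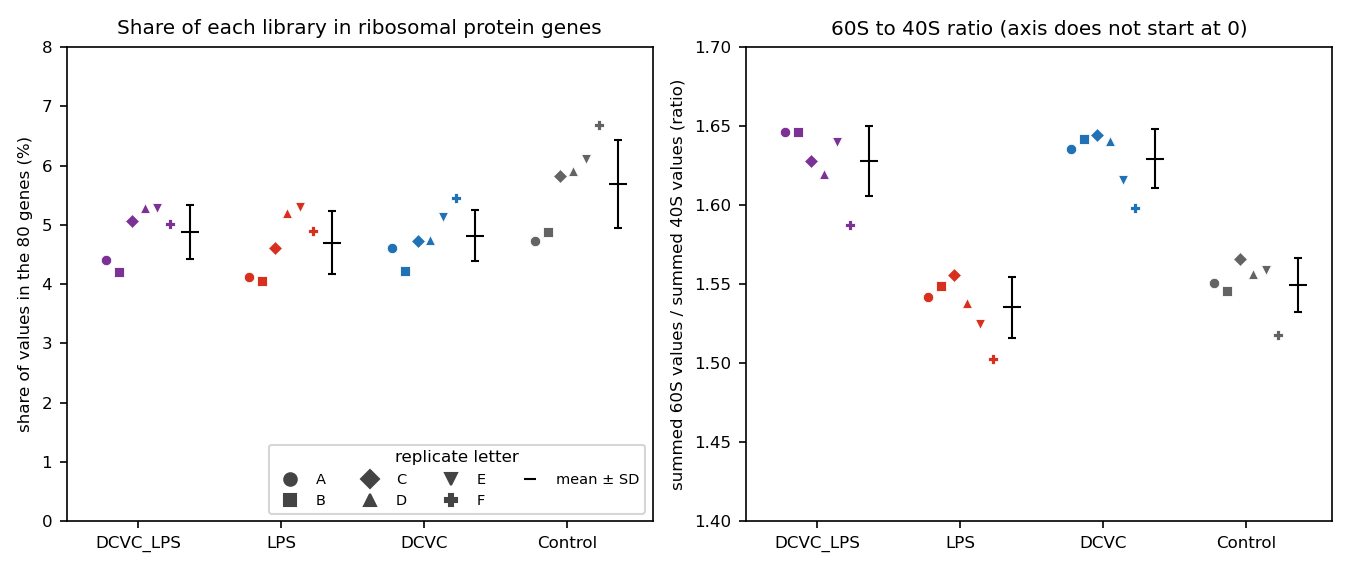
Left, the percentage of all values in named genes that fell in the 80 ribosomal protein genes; right, summed 60S values over summed 40S values, on an axis that does not start at 0; each marker is a library (shape: replicate letter) and bars are mean ± SD of 6. The highest share is 6.69% in Control, and on the right DCVC_LPS and DCVC (lowest 1.588) lie above LPS and Control (highest 1.566).

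The share also followed the letters. Libraries E and F averaged 5.14% in DCVC_LPS, 5.10% in LPS, 5.29% in DCVC and 6.40% in Control. Libraries A and B were lower in every group, at 4.31% in DCVC_LPS, 4.09% in LPS, 4.41% in DCVC and 4.81% in Control. The summed level of the 4 cycling markers (MKI67, TOP2A, CCNB1 and CDK1) also moved with the groups: it was 296 to 628 normalized counts in DCVC_LPS, 544 to 2095 in LPS, 383 to 1235 in DCVC and 540 to 3280 in Control, with none of the 4 at 0. The sum was lower than in the Control library of the letter in 4 of 6 LPS and 6 of 6 DCVC libraries. Its members did not move alike, since CCNB1 was higher in 6 of 6 letters, and MKI67, TOP2A and CDK1 lower in 6 of 6, in LPS against Control and in DCVC against Control. Their part in the share was not tested.

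Most of the family was lower with DCVC alone on the deposited scale. In DCVC against Control, 68 of 78 tested members were lowered and 0 raised by limma at an adjusted p under 0.05, with a median log2 change of -0.46. Of all 13900 tested genes 32.2% were lowered and 27.5% raised, with a median of -0.03. All 78 members had a negative change. With equal totals 33 members were lowered and 1 raised, with a median of -0.21 beside 0.22 for all genes, of which 20.1% were lowered and 46.1% raised. Within letters A and B, 64 members were lowered on the deposited scale, within C and D 70, and within E and F 64, beside 31.5%, 34.1% and 23.7% of all genes in these fits.

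RPL3, which lies near the peptidyl transferase centre of the 60S subunit, had 23221 to 29121 in DCVC (median 24543), against 33917 to 43609 in Control (median 40216), in normalized counts. No DCVC library reached the lowest Control library, and the log2 change was -0.61 ± 0.08 (SE, limma adjusted p = 2.7e-07). RPS6, the 40S protein phosphorylated by the S6 kinases, changed by -0.53 ± 0.08 on the log2 scale (limma adjusted p = 2.7e-06). RPS3, at the mRNA entry channel of the 40S subunit, changed by -0.46 ± 0.08 (limma adjusted p = 1.4e-05), and RPS4X, encoded on the X chromosome, by -0.53 ± 0.07 (limma adjusted p = 5.1e-07).

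RPL5 and RPL11 bind MDM2 together with 5S RNA when ribosome assembly is disturbed. RPL5 changed by -0.44 ± 0.10 and RPL11 by -0.64 ± 0.12 in DCVC against Control (limma adjusted p = 5.7e-04 and 4.7e-05). RPL23, another 60S protein that can bind MDM2, had 9776 to 13014 in DCVC (median 11446), against 14421 to 24389 in Control (median 21301), in normalized counts. These groups did not overlap, and the log2 change of -0.77 ± 0.13 (limma adjusted p = 1.3e-05) was the most negative of the 78 on the deposited scale. RPL22, a 60S protein with a second role in lymphocyte development known from mice, changed by -0.48 ± 0.11 and RPL10, a late-joining 60S protein, by -0.40 ± 0.08 (limma adjusted p = 6.4e-04 and 9.3e-05). Among the 10 tested members not called were RPL17, RPL28, RPL38, RPL39L, RPS10, RPS21, RPS26, RPS27L and RPS28.

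With LPS alone the direction of the family depended on the scaling. In LPS against Control, 41 members were raised and 2 lowered on the deposited scale, with a median log2 change of 0.24, while 37.8% of all genes were raised and 40.6% lowered with a median of -0.03. With equal totals 4 members were raised and 47 lowered, with a median of -0.24 beside -0.50 for all genes, of which 22.4% were raised and 59.5% lowered. The median of the family stood above that of all genes on the deposited scale. Equal totals shifts all genes of a library together, so the gap is nearly the same there by construction.

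RPLP0, the base of the stalk that recruits elongation factors to the 60S subunit, had 31722 to 35979 in LPS (median 34635), against 23813 to 29083 in Control (median 27545), in normalized counts. The groups did not overlap, and the log2 change was 0.33 ± 0.06 on the deposited scale (limma adjusted p = 9.1e-06) and -0.14 with equal totals. Within letters A and B, 62 members were raised on the deposited scale, within C and D 52, and within E and F 20 of 78, beside 36.6%, 37.3% and 32.9% of all genes in these fits. The count in E and F is thus a smaller share of the members than of all genes.

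**Figure D2:**
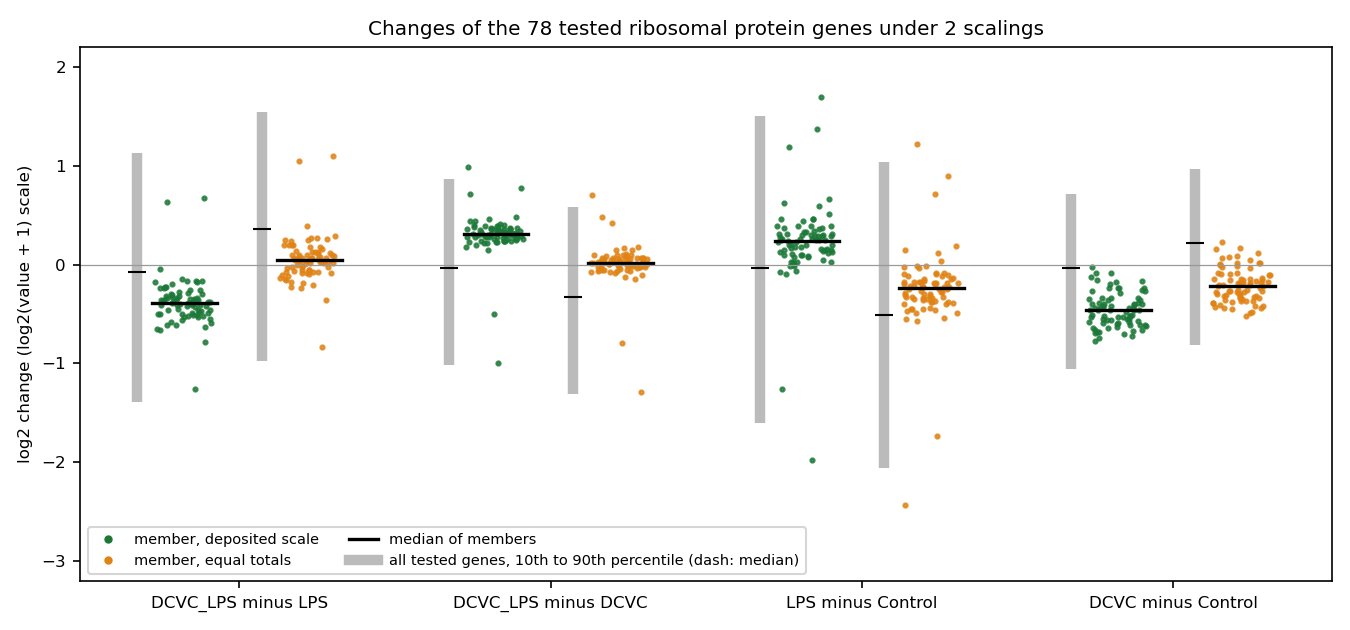
Log2 changes of the 78 tested members (points) in 4 comparisons, on the deposited scale (green) and with equal totals (orange), with the median of the members (thick line) and the 10th to 90th percentile and median of all tested genes (grey bar, dash). The members' median in LPS minus Control is 0.24 on the deposited scale and -0.24 with equal totals.

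When DCVC preceded LPS, the family was lower than with LPS alone on the deposited scale and near 0 in median change with equal totals. In DCVC_LPS against LPS, 64 members were lowered and 2 raised, with a median log2 change of -0.39, while 39.4% of all genes were lowered and 33.3% raised, with a median of -0.07. With equal totals 4 were lowered and 12 raised, with a median of 0.04 beside 0.36 for all genes, of which 21.9% were lowered and 54.5% raised.

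RPL3 had 29902 to 36854 in DCVC_LPS (median 32079), against 46637 to 52843 in LPS (median 48951), in normalized counts. The groups did not overlap, and the log2 change was -0.59 ± 0.08 on the deposited scale (limma adjusted p = 2.3e-07) and -0.16 with equal totals (limma adjusted p = 0.072). On the deposited scale RPS6 changed by -0.41, RPS3 by -0.39 and RPL11 by -0.47 (limma adjusted p = 4.1e-05, 7.5e-05 and 9.0e-04). RPL5, at -0.18 ± 0.10, did not pass the test (limma adjusted p = 0.11), and passed it with the replicate letter as a block (limma adjusted p = 0.015).

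LPS after DCVC gave a higher family on the deposited scale and few calls with equal totals. In DCVC_LPS against DCVC, 57 members were raised and 2 lowered, with a median log2 change of 0.31, while 29.9% of all genes were raised and 32.2% lowered, with a median of -0.03. With equal totals 3 were raised and 2 lowered, with a median of 0.02 beside -0.33 for all genes, of which 16.3% were raised and 52.7% lowered. RPLP0 had 28192 to 31609 in DCVC_LPS (median 30750.3), against 22842 to 25189 in DCVC (median 23782), in normalized counts. These groups did not overlap, and its log2 change was 0.34 ± 0.06 on the deposited scale (limma adjusted p = 1.5e-05). Each of the 4 comparisons shares a group with 2 of the others, so their counts are not independent. With the replicate letter as a block on the deposited scale, 75 members were raised in DCVC_LPS against DCVC and 54 in LPS against Control, beside 33.6% and 39.9% of all genes. Under the same block 75 were lowered in DCVC_LPS against LPS and 71 in DCVC against Control, beside 42.8% and 36.7% of all genes.

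The difference between the DCVC changes with and without LPS (the interaction) was called for few members. On the deposited scale 2 were positive and 3 negative, against 22.0% and 23.7% of all genes. With equal totals 18 were positive and 1 negative, against 33.1% and 16.1% of all genes. With the replicate letter as a block on the deposited scale 11 were positive and 4 negative, beside 28.2% of all genes in each direction. A positive interaction was called for 1 member within letters A and B, 24 within C and D and 0 within E and F, beside 19.4%, 26.2% and 9.22% of all genes in these fits. Relative to the family median (the scale described next) 3 were positive and 3 negative, against 12.2% and 16.8% of all genes.

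How far single members left the family was tested after the median log2 level of the 78 tested members had been set equal in every library, so that the factor of a library plays no part. In LPS against Control 8 members stood above the family and 18 below it, beside 24.3% and 47.6% of all genes. In DCVC against Control 18 stood above and 4 below, beside 58.3% and 11.1% of all genes. In DCVC_LPS against LPS 15 stood above and 2 below, beside 50.8% and 18.3%, and in DCVC_LPS against DCVC 3 and 2, beside 11.5% and 49.1%. With the replicate letter as a block 12 members stood above the family and 28 below it in LPS against Control, beside 28.3% and 52.5% of all genes. So did 26 and 10 in DCVC against Control (65.5% and 13.3% of all genes), 24 and 6 in DCVC_LPS against LPS (56.9% and 22.0%), and 3 and 8 in DCVC_LPS against DCVC (14.8% and 58.2%).

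RPS27L, the p53-inducible paralogue, moved apart from the family. It lies at chr15:63125872-63158021 on the minus strand of GRCh38 and is protein-coding in GENCODE 29. It had 426 to 743 in DCVC_LPS (median 593), 335 to 424 in LPS (median 373), 661 to 971 in DCVC (median 879) and 762 to 1018 in Control (median 895), in normalized counts. All LPS libraries lay below all Control libraries. All DCVC_LPS libraries lay above all LPS libraries, the closest being DCVC_LPS F at 425.7 and LPS E at 424.5.

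The log2 change of RPS27L on the deposited scale was -1.26 ± 0.12 in LPS against Control (limma adjusted p = 4.7e-10). It was 0.67 ± 0.12 in DCVC_LPS against LPS (limma adjusted p = 1.6e-05) and -0.50 ± 0.12 in DCVC_LPS against DCVC (limma adjusted p = 7.0e-04). In DCVC against Control it was -0.09 ± 0.12 and did not pass the test (limma adjusted p = 0.54). The first 3 of these had the opposite sign to the median of the family on the deposited scale. With equal totals RPS27L changed by -1.73 in LPS against Control and 1.10 in DCVC_LPS against LPS, which are the signs of the family median on that scale, and by -0.79 in DCVC_LPS against DCVC, which is not.

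Relative to the family median RPS27L changed by -1.53 ± 0.14 in LPS against Control, 0.44 ± 0.14 in DCVC against Control and 1.13 ± 0.14 in DCVC_LPS against LPS (limma adjusted p = 1.8e-10, 0.0072 and 7.5e-08). Its interaction on the deposited scale was 0.76 ± 0.17 (limma adjusted p = 6.0e-04).

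RPL39L, at a lower level, showed the same signs. It lies at chr3:187120948-187180908 on the minus strand of GRCh38, and none of its mRNA bases are shared with other annotated genes. It had 19.6 to 61.7 in DCVC_LPS (median 43.3), 21.5 to 28.7 in LPS (median 25.8), 67.6 to 97.9 in DCVC (median 82.0) and 93.5 to 121 in Control (median 98.2), in normalized counts. All LPS libraries lay below all Control libraries, and all DCVC_LPS libraries below all DCVC libraries. DCVC_LPS F, at 19.6, lay below every LPS library and the other 5 DCVC_LPS libraries above every one of them.

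The log2 change of RPL39L on the deposited scale was -1.97 ± 0.18 in LPS against Control (limma adjusted p = 3.2e-10). It was 0.64 ± 0.18 in DCVC_LPS against LPS (limma adjusted p = 0.0029) and -1.0 ± 0.18 in DCVC_LPS against DCVC (limma adjusted p = 3.5e-05). In DCVC against Control it was -0.34 ± 0.18 and did not pass the test (limma adjusted p = 0.11). Relative to the family median it changed by -2.25 ± 0.21 in LPS against Control and 1.09 ± 0.21 in DCVC_LPS against LPS (limma adjusted p = 2.5e-10 and 4.7e-05).

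Within letters E and F the change in DCVC_LPS against LPS did not pass the test on the deposited scale for either gene: it was 0.37 for RPS27L and 0.17 for RPL39L (limma adjusted p = 0.084 and 0.69). RPS27L and RPL39L were the 2 members lowered in LPS against Control, the 2 raised in DCVC_LPS against LPS and the 2 lowered in DCVC_LPS against DCVC, all on the deposited scale.

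The parent genes gave other values. RPS27 had medians of 10413 in DCVC_LPS, 13219 in LPS, 7826 in DCVC and 13611 in Control, in normalized counts, and its change relative to the family passed the test in none of the 4 comparisons (limma adjusted p = 0.058 to 0.62). RPL39 had medians of 2983 in DCVC_LPS, 4152 in LPS, 2216 in DCVC and 3802 in Control, and none of its 4 changes relative to the family passed (limma adjusted p = 0.39 to 0.8). For every 100 normalized counts of RPS27 there were 6.52 ± 1.80 of RPS27L in DCVC_LPS, 3.15 ± 0.97 in LPS, 10.9 ± 2.9 in DCVC and 7.50 ± 1.98 in Control (SD, n = 6). For every 100 of RPL39 there were 1.56 ± 0.54 of RPL39L in DCVC_LPS, 0.70 ± 0.26 in LPS, 3.62 ± 0.94 in DCVC and 3.09 ± 0.76 in Control. These are ratios of counts and not of levels per length.

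**Figure D3:**
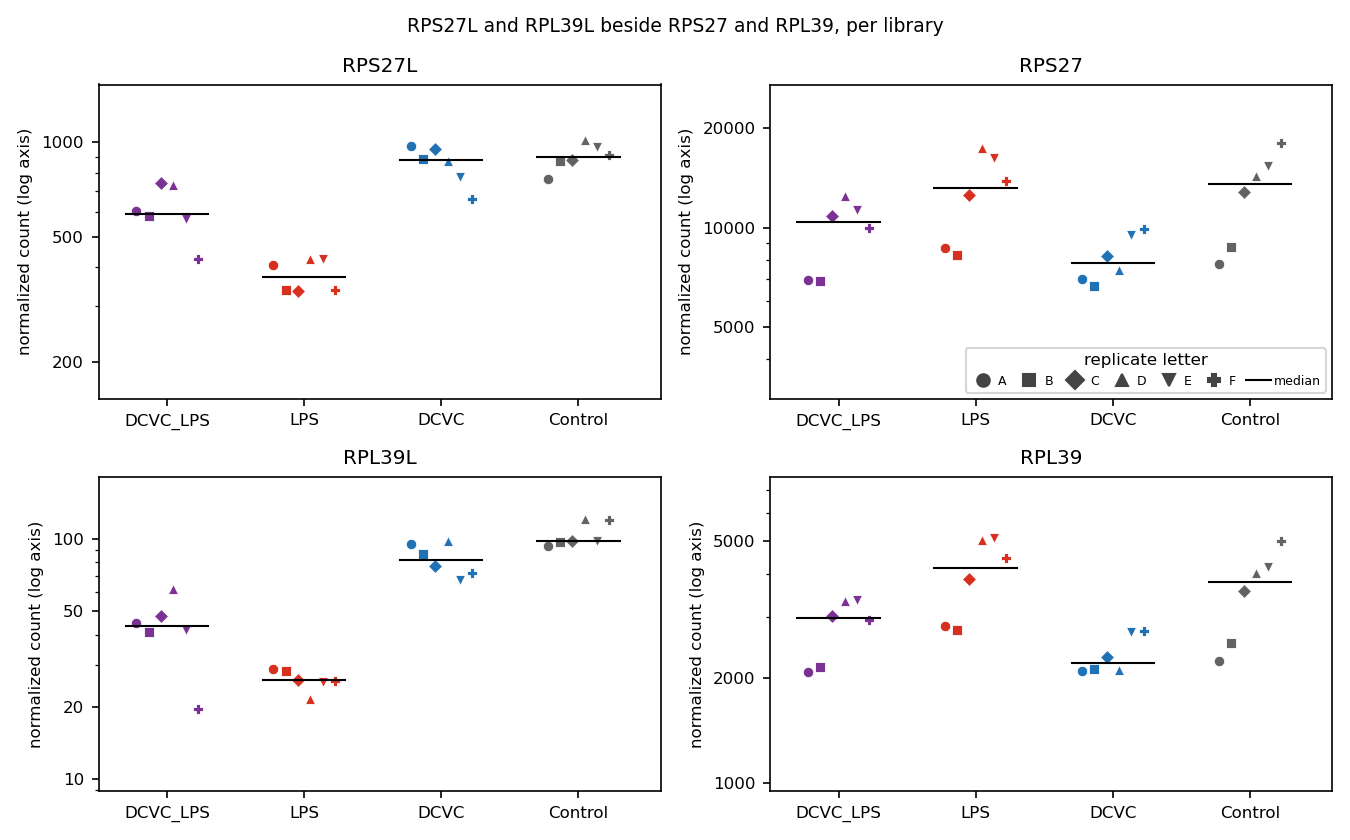
Normalized counts per library, on log axes, of RPS27L and RPL39L (left) and of RPS27 and RPL39 (right) in the 4 groups; shapes are replicate letters and lines are medians. RPS27L has a median of 593 in DCVC_LPS and 373 in LPS, and RPS27 is low in letters A and B.

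The 3 stalk proteins stood above the family with DCVC. Relative to the family median RPLP0 changed by 0.35 ± 0.08, RPLP1 by 0.25 ± 0.07 and RPLP2 by 0.26 ± 0.09 in DCVC against Control (limma adjusted p = 5.1e-04, 0.0035 and 0.013). In DCVC_LPS against LPS the changes were 0.29 for RPLP0, 0.18 for RPLP1 and 0.10 for RPLP2, of which that of RPLP2 did not pass (limma adjusted p = 0.0031, 0.032 and 0.36). Of 14 alternatives by limma, edgeR or DESeq2, the call in DCVC against Control was lost in 0 for RPLP0, 1 for RPLP1 and 3 for RPLP2. The highest adjusted p was 0.49, for RPLP2. In DCVC_LPS against LPS it was lost in 1 for RPLP0 and 7 for RPLP1 (highest adjusted p = 0.18 for RPLP1). On the deposited scale RPLP0 still fell with DCVC, with 22842 to 25189 in DCVC (median 23782), against 23813 to 29083 in Control (median 27545), overlapping groups and a log2 change of -0.17 ± 0.06 (limma adjusted p = 0.012).

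RPS26, a 40S protein at the mRNA exit channel that is mutated in some cases of Diamond-Blackfan anaemia, had the largest rise relative to the family in DCVC against Control, at 0.50 ± 0.12 (limma adjusted p = 6.5e-04). On the deposited scale it had 1190.1 to 1527 in DCVC (median 1325), against 1155 to 1595 in Control (median 1351), in normalized counts, with wide overlap. In DCVC_LPS against LPS it stood 0.29 ± 0.12 above the family (limma adjusted p = 0.032). That call was lost in 5 of 14 alternatives, at a highest adjusted p of 0.20 by limma, edgeR or DESeq2. Below the family in DCVC against Control were RPL23 at -0.25 ± 0.07 and RPS18 at -0.22 ± 0.07 (limma adjusted p = 0.0022 and 0.0045). RPS27A, which is made as a fusion with ubiquitin, was at -0.15 in DCVC against Control and -0.15 in DCVC_LPS against LPS (limma adjusted p = 0.034 and 0.037). Each of these calls was lost in 8 of 14 alternatives, at a highest adjusted p of 0.36 and 0.3 by limma, edgeR or DESeq2. RPL37A was at -0.20 in the first and -0.21 in the second, neither past the test (limma adjusted p = 0.071 and 0.063), and RPL36 was at -0.20 in the second (limma adjusted p = 0.06).

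RPL13A, a 60S protein that in interferon-treated human monocytes can leave the ribosome to silence inflammatory mRNAs, stood below the family with LPS and above it with DCVC. It had 32899 to 45182 in LPS (median 40691), against 33273 to 47133 in Control (median 43695), in normalized counts, and these groups overlapped. Against the family median it changed by -0.35 ± 0.07 in LPS against Control, 0.18 ± 0.07 in DCVC against Control and 0.41 ± 0.07 in DCVC_LPS against LPS (limma adjusted p = 3.4e-05, 0.021 and 5.0e-06). The call in DCVC against Control was lost in 7 of 14 alternatives, at a highest adjusted p of 0.20 by limma, edgeR or DESeq2. That in LPS against Control was lost in 1 and that in DCVC_LPS against LPS in 0. Also below the family in LPS against Control were RPL23 at -0.37 ± 0.07, RPL5 at -0.25 ± 0.07 and RPSA, also known as a laminin receptor, at -0.20 ± 0.07 (limma adjusted p = 1.9e-05, 0.0029 and 0.018).

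RPS19, the gene most often mutated in Diamond-Blackfan anaemia, stood 0.39 ± 0.09 above the family in LPS against Control (limma adjusted p = 2.6e-04). It had 11715 to 14513 in LPS (median 12614), against 7127 to 8930.1 in Control (median 8103), in normalized counts, without overlap. It also stood above the family in DCVC against Control, at 0.29 ± 0.09 (limma adjusted p = 0.0046).

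**Figure D4:**
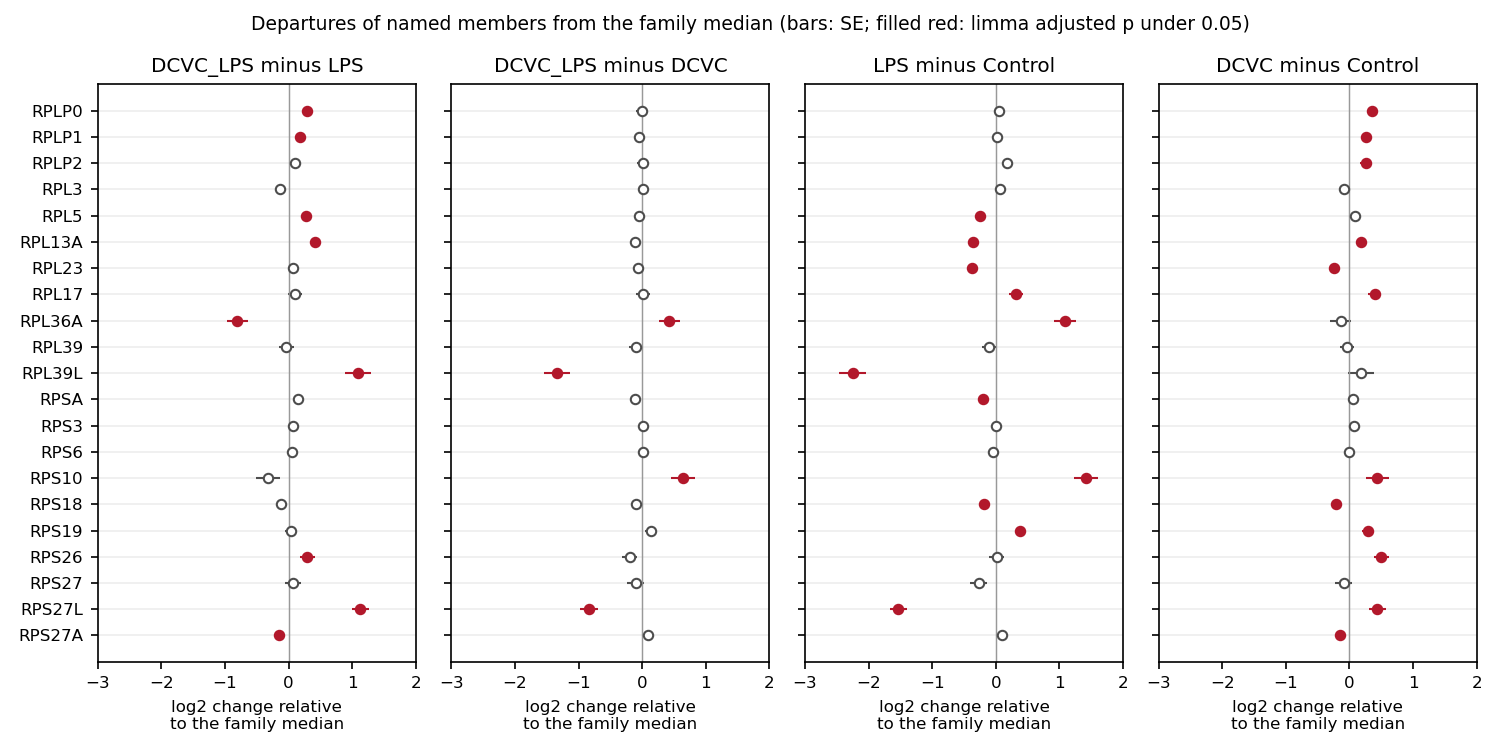
Log2 change relative to the family median (points, with SE) of 21 members in 4 comparisons, filled red where limma's adjusted p was under 0.05. RPS27L and RPL39L stand below the family in LPS minus Control (-1.53 and -2.25) and above it in DCVC_LPS minus LPS (1.13 and 1.09).

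Among the members furthest above the family with LPS were ones with low counts. RPL36A had 132 to 169 in LPS (median 145), against 45.2 to 64.9 in Control (median 58.9), in normalized counts. RPS10, chosen after its values were seen because its mean is below the limit for named genes, had 72.6 to 99.6 in LPS (median 89.7), against 21.9 to 33.6 in Control (median 25.4). In neither gene did the groups overlap. Their changes from the family median were 1.09 ± 0.17 (RPL36A) and 1.41 ± 0.19 (RPS10), and that of RPL17 was 0.31 ± 0.11 (limma adjusted p = 2.7e-06, 1.7e-07 and 0.011).

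Of its mRNA bases RPL36A shares 77.6% with exons of other genes in GENCODE 29, RPS10 77.0% and RPL17 91.0%. For RPL36A the other gene is the read-through RPL36A-HNRNPH2 and for RPS10 it is RPS10-NUDT3. How reads in shared exons were counted is not given in the sources used here, so these values are uncertain, and the part of the overlap in them was not tested. In DCVC_LPS against LPS the change of RPL36A relative to the family was -0.80 ± 0.17 (limma adjusted p = 1.8e-04). In DCVC_LPS against DCVC, RPL36A stood 0.43 and RPS10 0.64 above the family (limma adjusted p = 0.034 and 0.0044). The call of RPL36A was lost in 8 of 14 alternatives, at a highest adjusted p of 0.31 by limma, edgeR or DESeq2.

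The 2 untested members were near the floor of 3 reads that a count of 0 allows. RPL3L, known from heart and skeletal muscle, had 9 reads over 5 DCVC_LPS libraries and 7 reads over 4 DCVC libraries, and was at 0 in all LPS and Control libraries. RPL10L, known from testis, had 1 read in LPS and 1 in Control, and was at 0 in DCVC_LPS and DCVC.

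Summed over the subunits, DCVC_LPS and DCVC had more 60S relative to 40S values than LPS and Control. The ratio was 1.628 ± 0.022 in DCVC_LPS, 1.535 ± 0.019 in LPS, 1.629 ± 0.018 in DCVC and 1.549 ± 0.017 in Control (SD, n = 6). The groups with DCVC did not overlap with those without it. Without the 5 members of highest level the ratio was 1.338 in DCVC_LPS, 1.261 in LPS, 1.348 in DCVC and 1.279 in Control. As a ratio of geometric means, in which each gene weighs the same, it was 1.146 in DCVC_LPS, 1.133 in LPS, 1.166 in DCVC and 1.182 in Control, so that in DCVC against Control the direction turned. Both alternatives were chosen after seeing the data.

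FAU, whose product is cleaved into a ubiquitin-like domain and a ribosomal protein, was raised in LPS against Control and in DCVC_LPS against DCVC, and lowered in DCVC against Control and in DCVC_LPS against LPS, on the deposited scale. FAU had 4473 to 5497 in DCVC_LPS, 5965 to 7324 in LPS, 3792 to 4564 in DCVC and 4773 to 6629 in Control, in normalized counts. With equal totals it was lowered in LPS against Control and in DCVC against Control. Of 16 other mRNAs with a TOP motif, mainly of translation factors, 15 were tested and EEF1G was listed at 0 in every library.

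Of these 15, 12 were raised and 0 lowered in LPS against Control, with a median log2 change of 0.34. In DCVC against Control 0 were raised and 10 lowered, with a median of -0.35. In DCVC_LPS against LPS 1 was raised and 8 were lowered, with a median of -0.21. NPM1, a nucleolar chaperone of ribosome assembly with a TOP motif, moved further than these medians. On the deposited scale it changed by 0.64 ± 0.06 in LPS against Control and -0.79 ± 0.06 in DCVC_LPS against LPS (limma adjusted p = 1.3e-10 and 7.3e-12). With equal totals 2 of the 15 were raised and 6 lowered in LPS against Control, 3 and 5 in DCVC against Control, and 8 and 3 in DCVC_LPS against LPS. The medians of the 15 were then -0.14, -0.10 and 0.23. The shares of all genes are those given with the comparisons of the family, such as 37.8% raised and 40.6% lowered in LPS against Control on the deposited scale and 22.4% and 59.5% with equal totals.

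Of 4 paralogues outside the rule (RPL22L1, RPL26L1, RPL7L1 and RPL36AL) 3 were raised and 0 lowered in LPS against Control on the deposited scale, beside 37.8% and 40.6% of all genes. In DCVC against Control 2 were raised and 1 lowered, beside 27.5% and 32.2% of all genes. In DCVC_LPS against LPS 1 was raised and 2 were lowered, beside 33.3% and 39.4%. Counts of so few genes are a description only. RPL22L1, a paralogue of RPL22, had 411 to 545 in DCVC_LPS (median 477), 783 to 1101 in LPS (median 983), 175 to 275 in DCVC (median 227) and 299 to 445 in Control (median 361), in normalized counts. Its log2 change was 1.44 ± 0.11 in LPS against Control and -1.03 ± 0.11 in DCVC_LPS against LPS (limma adjusted p = 2.3e-11 and 1.7e-08), and 0.96 and -0.60 with equal totals. Its signs were thus opposite to those of RPL39L and RPS27L in both comparisons.

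Of 15 regulators of TOP mRNAs, 8 were raised and 6 lowered in LPS against Control on the deposited scale, and 2 raised and 7 lowered in DCVC_LPS against LPS, beside 37.8% and 40.6% of all genes in the first and 33.3% and 39.4% in the second. With equal totals 6 were raised and 8 lowered in LPS against Control, and 9 raised and 2 lowered in DCVC_LPS against LPS, beside 22.4% and 59.5% of all genes in the first and 54.5% and 21.9% in the second. In LPS against Control LARP1 changed by 1.235 ± 0.06 (limma adjusted p = 2.3e-15) and MYC, a driver of ribosomal gene transcription, by 3.02 ± 0.13 (limma adjusted p = 1.5e-16). EIF4EBP1, a translation repressor that mTOR inactivates, changed by -1.97 ± 0.11 (limma adjusted p = 1.8e-14). All 3 kept their direction with equal totals, at 0.76 for LARP1, 2.54 for MYC and -2.44 for EIF4EBP1.

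Of 8 chaperones that escort single ribosomal proteins, 5 were raised and 1 lowered in LPS against Control on the deposited scale, and 3 and 4 with equal totals. Of all genes 37.8% were raised and 40.6% lowered there on the deposited scale, and 22.4% and 59.5% with equal totals, so counts of so few genes are a description only. GRWD1, which escorts RPL3, changed by 1.84 ± 0.12 on the deposited scale (limma adjusted p = 8.0e-13). Of 4 genes of the p53 checkpoint of ribosome stress, 3 were raised and 0 lowered on the deposited scale, and 3 and 1 with equal totals. MDM2, the p53 ubiquitin ligase, changed by 1.45 ± 0.08 and CDKN1A, a p53 target that halts the cell cycle, by 1.04 ± 0.10 in LPS against Control (limma adjusted p = 3.4e-14 and 1.5e-09), with the opposite sign to RPS27L.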

How the data were processed

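Poly-A selected RNA was sequenced from 24 libraries, 6 in each of 4 groups taken from the sample titles. The authors deposited 1 table of normalized counts (signal, never negative). Per the submitters' processing notes, the tools were STAR and featureCounts 1.6.1 on hg38, then DESeq2 1.24.0 under R 3.6.0, with quality reports from FastQC 0.11.5 and MultiQC 0.9. Neither the version of STAR nor the gene annotation is given in the sources used here, and the same holds for strand and multiple hits. In each library 100% of the values were whole multiples of 1 value within a tolerance of 0.1 read, which returned the reads, and their depth is given with the results. In LPS A this value was too near 1 for that check, so count tests used the other 23 libraries.

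The table had 58381 entries. The 19595 without a gene name (33.6%) held 0.986% of the values and were left out. With limma 3.58.1 (R 4.3.3), log2(value + 1) of the 13900 named genes with a mean of at least 10 was fitted with a mean-variance trend, 4 group means and 20 residual degrees of freedom, and p-values were adjusted over all 13900 genes by Benjamini-Hochberg. A fold on this scale understates changes of low genes. A second fit first shifted each library by the median log2 value of the 78 tested members. Alternatives were equal totals, a pseudocount of 10, no filter, the replicate letter as a block, letter pairs, each left-out letter, only the groups compared, and edgeR 4.0.16 and DESeq2 1.42.0 on recovered reads. Scripts were tested on simulated data.

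Same-letter libraries of different groups deviated together, with 36 correlations of 0.134 to 0.539 (median 0.330). Different letters of a pair (A and B, C and D, E and F) did so nearly as much, at 0.052 to 0.464 (median 0.286). All other letters had a median of -0.114. The labels do not say what a letter marks. The main fit has no term for the letters, so its p-values treat the 6 libraries of a group as independent, which they may not be. Named members were the 3 with the largest rise and the 3 with the largest fall relative to the family (mean of at least 50) in LPS against Control, DCVC against Control and DCVC_LPS against LPS, and a list of well-known ones; some genes that these rules take are not reported here. The members and lists were chosen with earlier results of these data known. Gene positions are from GENCODE 29 and sequences from RefSeq (GRCh38.p14), in which 63 of the 80 members were found with chromosome 8 left out.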

Additional observations from a re-analysis of the deposited data

Results flagged for a closer look

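For 6 members, of which 5 are given here, the DCVC change with LPS differed from the DCVC change without LPS by limma's test of that difference, relative to the family median. It was positive for RPS27L, at 0.69 (limma adjusted p = 0.0094) and 0.76 on the deposited scale (limma adjusted p = 0.0006). It was positive for RPL39L, at 0.91 (limma adjusted p = 0.022) and 0.97 on the deposited scale (limma adjusted p = 0.003). RPL23 had 0.31 (limma adjusted p = 0.015) relative to the family. The differences were negative for RPL36A and RPS10, which share most of their mRNA bases with other genes. RPL36A had -0.66 (limma adjusted p = 0.041) and -0.60 on the deposited scale (limma adjusted p = 0.014). RPS10 had -0.77 (limma adjusted p = 0.03) and -0.70 on the deposited scale (limma adjusted p = 0.0096).

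Relative to the family these calls were lost in 2 of 14 alternatives for RPS27L (highest adjusted p = 0.098), 5 for RPL39L (0.37), 6 for RPL23 (0.22), and 9 each for RPL36A (0.64) and RPS10 (0.45), by limma, edgeR or DESeq2. The sign stayed in all 14 for each of the 5. Without letter D no member passed this test, and without letter C or E 1 did. In 124 groups of 6 values looked at for a library far from the others none was found, where chance gives about 5%.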

How the results depend on the processing

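With equal totals, members raised and lowered numbered 4 and 47 in LPS against Control, 1 and 33 in DCVC against Control, 12 and 4 in DCVC_LPS against LPS, 3 and 2 in DCVC_LPS against DCVC, and 18 and 1 for the interaction. RPLP0 then turned to -0.14 in LPS against Control, 0.079 in DCVC against Control and 0.26 in DCVC_LPS against LPS, where RPS6 (0.021), RPS3 (0.044) and RPL5 (0.25) turned too. RPS27L in DCVC against Control, not called, turned to 0.16, and to 0.18 within letters A and B. Without a filter 1 member was raised in DCVC against Control. Members raised in LPS against Control numbered 62 within letters A and B, 52 within C and D and 20 within E and F (36.6%, 37.3% and 32.9% of all genes), and those with a positive interaction 1 within A and B, 24 within C and D and 0 within E and F, beside 19.4%, 26.2% and 9.22% of all genes. A negative one had 4 within A and B, 1 within C and D and 0 within E and F, beside 3234, 3495 and 1578 of all 13900 genes. Within E and F 0 members were raised in DCVC_LPS against LPS, beside 3442 of all 13900 genes. With the replicate block the members departing from the family numbered 40 in LPS against Control, 36 in DCVC against Control, 30 in DCVC_LPS against LPS, 11 in DCVC_LPS against DCVC and 14 for the interaction. Letter pairs as a term gave the same numbers, except 12 in DCVC_LPS against DCVC. Positive interactions numbered 11 under both. Of 68 single-gene results the block changed 1 call, RPL5 in DCVC_LPS against LPS. Leaving out 1 letter gave 14 to 22 departing members in DCVC against Control (14 without C, D or F), 3 to 4 in DCVC_LPS against DCVC (3 without F) and 0 to 5 for the interaction. DESeq2 gave 11 departing members in DCVC_LPS against DCVC, and edgeR 3 for the interaction. On recovered reads, edgeR with TMM called 5189 genes raised and 5511 lowered in LPS against Control, among them 42 members raised and 2 lowered. Without the 10 genes of highest share the family held 5.44% in DCVC_LPS, 5.24% in LPS, 5.26% in DCVC and 6.33% in Control. Without its 5 highest members it held 3.97% in DCVC_LPS, 3.82% in LPS, 3.93% in DCVC and 4.64% in Control. Of 979 alternative values for single genes 853 kept direction and side of the threshold, 114 lost the call, 4 gained it and 8 turned. Causes not shown by the construction of an alternative were not tested. Low counts limit RPL39L, RPL36A and RPS10.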
